A study of Mus musculus with 12 samples.

Results

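The complement genes described here encode the components of the complement cascade, its regulators and its receptors, and were taken from a list of 36 mouse genes ordered by their role. Of these, 34 had a row of their own among the 30176 genes of the array, 27 were tested in the ovaries and 27 in the gonadal fat pads. C3 and Cfd (adipsin) were not analysed here. The ovaries and gonadal fat pads came from female C57BL/6J mice that received a subcutaneous silicone capsule at 25 days of age and were killed about 60 days later. In DHT-treated mice the capsule held 5 mg of dihydrotestosterone (DHT), an androgen that cannot be aromatised to estrogen, and in placebo-treated control mice it was empty. Each of the 4 groups (DHT and control, in each tissue) held 3 biological replicates on Affymetrix mouse transcriptome arrays, 12 arrays in all, and no genetic alteration was listed for any group. The sources used here do not say whether a replicate was a single mouse or a pool, so p-values measure the spread between these samples. With 3 arrays a group, the array number sets the precision.

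Complement is a proteolytic cascade of plasma and tissue proteins. The classical pathway starts from C1q bound to antibody or to cell debris, the lectin pathway from collectins and ficolins bound to sugars, and the alternative pathway amplifies both, and all of them meet at the cleavage of C3 and C5. The terminal proteins from C5 to C9 then assemble into the membrane attack complex, which CD59, clusterin and vitronectin restrain. The liver makes most of the plasma proteins, macrophages make C1q and properdin, and adipocytes are known for adipsin.

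Levels are log2 values of the arrays, so that a difference of 1 is a doubling. The median of an ovary array was 4.35 to 4.43 and that of a fat array 3.30 to 3.52, so levels were compared within a tissue and within a gene. A gene was tested where it lay above the array median on at least 3 of the 6 arrays of the tissue. All tested complement genes did so on all 6 arrays, except Cfi in the ovaries, which did so on 3. A call is a limma test of DHT against control with a Benjamini-Hochberg adjusted p of at most 0.10 over all genes tested.

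The terminal component gene C7 rose in both tissues, about 10.5-fold in the ovaries and 9.76-fold in gonadal fat. C6, which encodes the protein that binds C5b before C7 does, rose 5.40-fold in gonadal fat and lay below the median on every ovary array. In gonadal fat the membrane inhibitor gene Cd59a also rose 1.74-fold, and Clu fell 1.37-fold. No other listed gene passed the test in either tissue. In the ovaries 1 of 27 tested genes (3.70%) was called, where 1.26% of all 19118 tested genes were, and in gonadal fat 4 of 27 (14.8%) were called, where 3.87% of all 19252 tested genes were. The median log2 difference over the tested complement genes was 0.07 in the ovaries and 0.17 in gonadal fat, against -0.004 and -0.006 over all genes tested.

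C6 and C7 are neighbours on chromosome 15, with Mroh2b as the only protein-coding gene listed between them, and the letters before their start sites are shown because both genes rose in the same fat pads. The sequences are the 250 bases before each start in RefSeq (GRCm38.p6), at chr15:5063774-5064023 on the minus strand for C7 and chr15:4726960-4727209 on the plus strand for C6, and capitals mark the longest run of letters that both hold on the same strand.
C7: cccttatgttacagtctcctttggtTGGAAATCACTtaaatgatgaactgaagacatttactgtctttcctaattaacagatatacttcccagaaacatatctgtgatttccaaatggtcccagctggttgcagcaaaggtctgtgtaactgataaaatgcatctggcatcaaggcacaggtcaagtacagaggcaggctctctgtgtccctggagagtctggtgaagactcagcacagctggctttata
C6: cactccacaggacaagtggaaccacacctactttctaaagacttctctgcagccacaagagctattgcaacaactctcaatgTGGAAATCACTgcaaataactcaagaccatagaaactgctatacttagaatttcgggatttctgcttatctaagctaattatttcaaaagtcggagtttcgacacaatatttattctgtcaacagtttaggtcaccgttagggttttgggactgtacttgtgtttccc
The shared run was 11 bases long and began 225 bases before the start of C7 and 168 bases before that of C6. It occurred on either strand in 6 of the 32851 promoters of this length (0.0183%), those of C6 and C7 included. The longest run shared by other pairs of promoters was not measured, so whether this one is unusual was not tested. The shared run was found by comparing these promoters, after the expression values were known. The longest run shared by opposite strands had 10 bases, and it is not a separate measure. The C7 window also holds gtgatttcca, which is the first 10 bases of the shared run read on the opposite strand. The half-site of the androgen receptor, AGAACA or TGTTCT on either strand, occurred in neither window, nor in that of Cd59a. It occurred in 16.1% of all promoters of this length and in 6 of the 29 promoters matched to 27 of the listed genes (20.7%). The full pair, AGAACA and TGTTCT set 3 bases apart, occurred in 3 promoters of all and in none of the listed genes. Such matches describe the letters of these windows alone.

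C7, which joins C5b and C6 to anchor the growing attack complex in a membrane, had ovary levels of 9.66, 9.34 and 9.50 in DHT-treated mice and 6.51, 5.92 and 5.89 in control mice. Every DHT value lay above every control value. The means were 9.50 ± 0.16 and 6.10 ± 0.35 (SD, n = 3 each). The log2 difference was 3.40 (SE 0.18, 95% interval 2.96 to 3.83), which limma called with an adjusted p of 0.00415. Among the 19118 genes tested in the ovaries, no gene had a larger increase. The 4 measured markers of the corpus luteum, the progesterone-making gland left after ovulation, fell in the same comparison, and their mean level was 6.51 to 7.13 on the DHT arrays and 9.26 to 11.3 on the control arrays. Their part in the C7 difference was not tested. Adipocyte markers averaged 5.64 to 6.52 on the DHT ovary arrays and 6.62 to 7.58 on the control ovary arrays, with no call among the 4. With their mean as a covariate the log2 difference of C7 was 3.92 and was called (limma adjusted p = 0.00369). That fit called 21 genes of all, against 241 without the covariate. The marker means of the groups did not overlap, so the fit cannot separate adipocyte RNA from treatment. From the RNA of whole tissue alone, fewer cells of a type and less RNA per cell cannot be told apart. For the corpus luteum, the study's histology found none in the ovaries of DHT-treated mice. Markers of the oviduct, the tube beside the ovary, were highest on the arrays of DHT replicate 3 and control replicate 2 (means of 7.13 and 7.47, against 4.59 to 5.71 on the others), and without these 2 arrays the C7 difference was 3.31 with an adjusted p of 0.134, against 3.41 and 0.00487 with the mean of the oviduct markers as a covariate.

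In gonadal fat C7 reached 8.20, 8.32 and 7.52 in DHT-treated mice and 5.35, 4.05 and 4.78 in control mice. The groups again did not overlap, and all 12 arrays of both tissues lay above their medians for this gene. The means were 8.01 ± 0.43 and 4.73 ± 0.65 (SD, n = 3 each), and the log2 difference was 3.29 (SE 0.33, 95% interval 2.54 to 4.04, limma adjusted p = 0.00424). This was the second largest increase among the 19252 genes tested in fat. The log2 effect of DHT on C7 in fat minus that in the ovaries was -0.11, with a 95% interval from -1.03 to 0.81 and an adjusted p of 0.904. A difference between the tissues was thus not shown, and the interval leaves room for one in either direction.

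**Figure D1:**
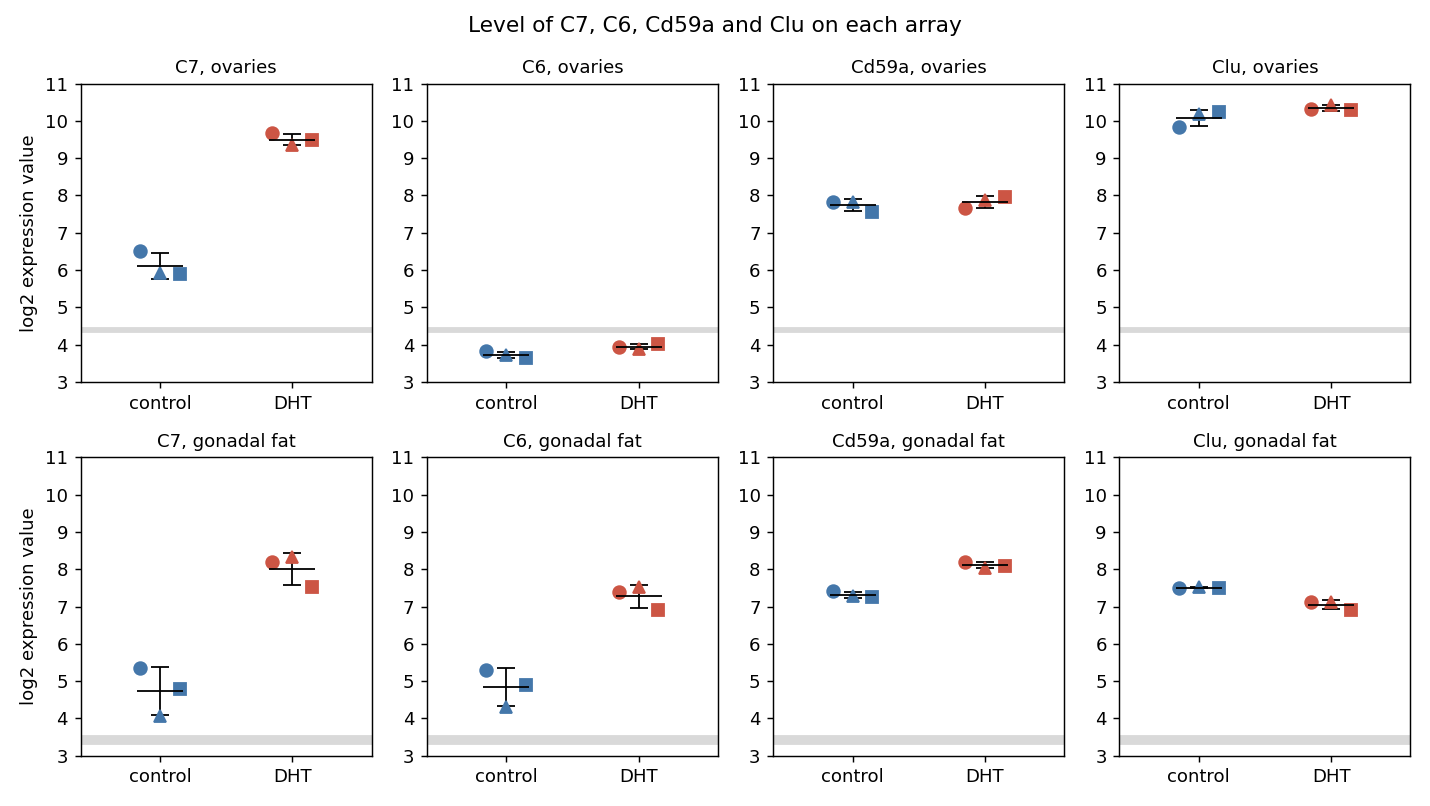
Log2 level of C7, C6, Cd59a and Clu on each array of the ovaries (top) and gonadal fat (bottom), with circles, triangles and squares for replicates 1, 2 and 3, a bar at the mean with the SD, and a grey band for the range of array medians. C7 lay at 9.34 to 9.66 on the DHT ovary arrays and 5.89 to 6.51 on the control ovary arrays, and C6 lay below the band on every ovary array and above it on every fat array.

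C6, whose protein binds C5b as the attack complex starts to form, had gonadal fat levels of 7.38, 7.52 and 6.91 in DHT-treated mice and 5.30, 4.31 and 4.90 in control mice. The 6 fat arrays stood in the same order for C6 as for C7, from control replicate 2 at the bottom to DHT replicate 2 at the top. The means were 7.27 ± 0.32 and 4.84 ± 0.50 (SD, n = 3 each), with a log2 difference of 2.43 (SE 0.25, 95% interval 1.85 to 3.02, limma adjusted p = 0.00507). In the ovaries C6 lay at 3.94, 3.87 and 4.03 under DHT and at 3.82, 3.72 and 3.65 in controls, all below the array medians, and it was not tested there. The fat values of C6, C7 and Clu belong to the rows whose order had to be restored before use. So do those of C2, C4b, Masp1, Colec11, Colec12, Cfb, Vtn and C9. The macrophage markers Adgre1, Cd68, Csf1r, Lyz2, Cd14 and Ms4a7 and part of the other marker lists are also among them. Without that step C7 in fat showed a log2 difference of -0.0555 (limma adjusted p = 0.831) and Masp1 one of -0.16 (adjusted p = 0.651).

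Other terminal genes did not share this change. C8g, the gamma chain gene of C8, differed by 0.04 in the ovaries and -0.02 in fat on the log2 scale (adjusted p = 0.884 and 0.932). Hc, which encodes C5 in the mouse, and C8a, C8b and C9, which encode the remaining parts of the attack complex, were below the array median on all 12 arrays. Hc is singled out after its values were seen, with ovary levels of 3.43, 3.44 and 3.38 under DHT and 4.01, 3.79 and 4.10 in controls. These values did not overlap, and a fit without the filter on low values gave a log2 difference of -0.55 and an adjusted p of 0.0942. Of the hepatocyte markers measured in fat, Alb rose (log2 difference 1.10, adjusted p = 0.0755), while Ttr, Apoa1 and Ahsg differed by -0.03, 0.05 and 0.03 and Fgb lay below the filter. The mean of these 5 markers was 3.62 to 3.80 on the DHT fat arrays and 3.42 to 3.55 on the control fat arrays, and its part in the C6 and C7 differences was not tested.

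The genes beside C6 and C7 were read in the order of the RefSeq gene table. Of the 17 protein-coding genes from Fbxo4 to Osmr, not all of them tested, C7 alone was called in the ovaries, where 1.26% of all tested genes were. In gonadal fat Fbxo4 and Osmr at the ends of the stretch were called beside C6 and C7, where 3.87% of all tested genes were called. Fbxo4 and Osmr each had a log2 difference of 0.51 (limma adjusted p = 0.0752 and 0.0891). Every gene of the stretch tested in fat had a higher mean under DHT, where 48.6% of all tested genes did. Besides C6 and C7, these differences ran from 0.009 (Dab2) to 0.51, and their cause was not tested. The ovary differences went in both directions. Card6, next to C7, differed by -0.24 in the ovaries and 0.07 in fat (adjusted p = 0.513 and 0.751). Mroh2b and C9 were under the filter in both tissues, Plcxd3 in fat and C6 in the ovaries, and Rpl37 and Fyb had no row of their own.

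**Figure D2:**
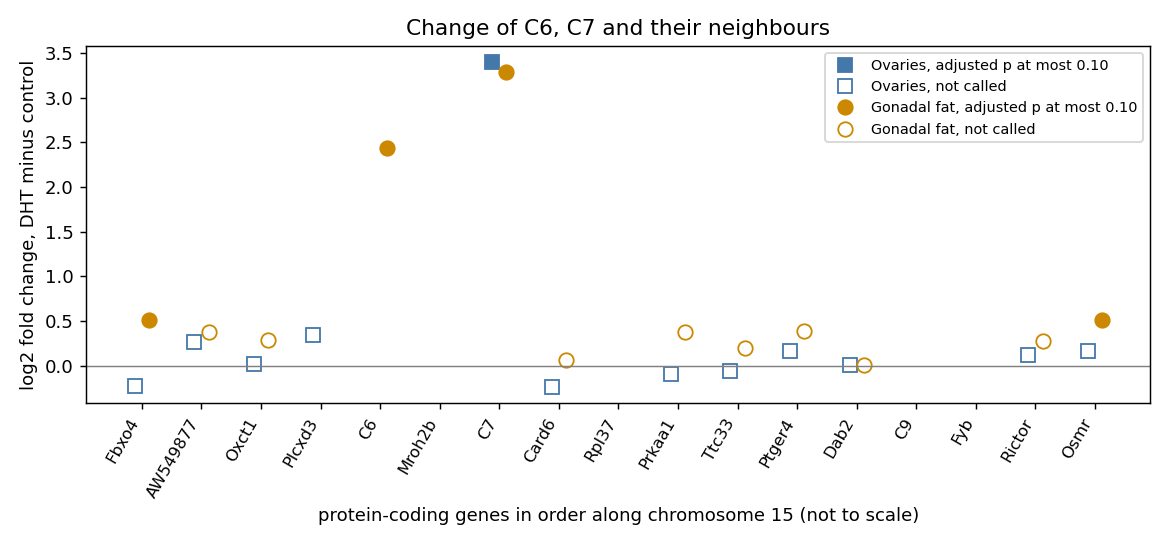
Log2 difference, DHT minus control, of the protein-coding genes around C6 and C7 in their order on chromosome 15, in the ovaries (squares) and gonadal fat (circles), with filled symbols at an adjusted p of at most 0.10. C7 stood at 3.40 and 3.29 and C6 at 2.43, and the other tested genes lay between -0.24 and 0.51.

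Of the 9 regulator genes, 8 were tested in the ovaries, with no call, and 7 in gonadal fat, where Cd59a rose and Clu fell. Cd59a encodes a membrane protein that blocks the last step of the attack complex. Its gonadal fat levels were 8.20, 8.04 and 8.08 in DHT-treated mice and 7.40, 7.27 and 7.26 in control mice. The gap between the groups was wider than the range within either. The means were 8.11 ± 0.09 and 7.31 ± 0.08 (SD, n = 3 each), and the log2 difference was 0.80 (SE 0.09, 95% interval 0.588 to 1.005, limma adjusted p = 0.00731). In the ovaries the levels of 7.65, 7.88 and 7.95 under DHT and 7.83, 7.84 and 7.56 in controls overlapped, with a log2 difference of 0.09 (adjusted p = 0.844). The effect in fat exceeded that in the ovaries by 0.71 (SE 0.14, 95% interval 0.40 to 1.02, adjusted p = 0.0251). Across the tissue difference 2 of 26 tested complement genes were called (7.69%), where 6.14% of all 18081 tested genes were.

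The sequence of Cd59a is close to that of Cd59b, and probes of such copies can take up each other's RNA. Cd59b had fat levels of 5.09, 5.01 and 4.96 under DHT and 4.77, 4.57 and 4.74 in controls, a log2 difference of 0.33 that did not pass the test (adjusted p = 0.135). Which copy the Cd59a signal came from is therefore uncertain, as it is for C4b beside C4a, C1ra beside C1rb and Cd55 beside Cd55b.

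Clu encodes clusterin, a secreted chaperone that binds forming attack complexes in fluid. Its gonadal fat levels were 7.11, 7.13 and 6.91 in DHT-treated mice and 7.51, 7.52 and 7.49 in control mice. All DHT arrays were lower, and the control arrays were nearly equal. The means were 7.05 ± 0.12 and 7.50 ± 0.01 (SD, n = 3 each), with a log2 difference of -0.45 (SE 0.09, 95% interval -0.66 to -0.24, limma adjusted p = 0.0554). This call was lost on leaving out any array but DHT replicate 1, with adjusted p up to 0.182, and on centring the arrays on their medians (log2 difference -0.37, adjusted p = 0.184). In the ovaries Clu lay at 10.31, 10.44 and 10.30 under DHT and at 9.83, 10.18 and 10.24 in controls. These groups did not overlap, and the log2 difference of 0.27 did not pass the test (adjusted p = 0.399). That difference was 0.14 without control replicate 1 and -0.02 with the adipocyte markers as a covariate (adjusted p = 0.536 and 0.970). The adipocyte marker means of the ovary groups did not overlap, so the second of these fits cannot separate them from treatment. The log2 effect of fat minus ovaries was -0.72 (SE 0.15, 95% interval -1.04 to -0.40, adjusted p = 0.0277).

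The remaining regulators passed no test. Serping1, the C1 inhibitor gene, had ovary means of 9.67 ± 0.10 under DHT and 9.31 ± 0.15 in controls (SD, n = 3 each), a log2 difference of 0.36 (adjusted p = 0.188), and one of 0.06 in fat (adjusted p = 0.882). Cd55, which speeds the decay of convertases, Cd46, a cofactor of factor I, and Cr1l, the rodent convertase inhibitor Crry, had ovary differences from -0.08 to 0.00 and fat differences from -0.04 to 0.19. Vtn, the vitronectin gene, differed by -0.01 and 0.13. C4bp lay below the array median in both tissues.

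Cfi, the gene of the protease that inactivates C3b, was called in neither tissue and is singled out for its spread, after its values were seen. Its ovary levels were 4.16, 4.74 and 5.90 under DHT and 4.35, 6.97 and 4.002 in controls. The highest array of each group was the one with the most oviduct marker RNA, DHT replicate 3 and control replicate 2. The log2 difference of -0.17 had an SE of 0.84, and in fat Cfi lay below the array median.

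The 12 genes of the classical and lectin pathways were all tested in both tissues and none was called. C1qa, C1qb and C1qc, the chains of the C1q recognition protein, had log2 differences of 0.13, 0.26 and 0.19 in the ovaries and of 0.27, 0.53 and 0.28 in gonadal fat. The lowest adjusted p of these was 0.169, for C1qb in fat, whose means were 7.86 ± 0.14 and 7.33 ± 0.34 (SD, n = 3 each). C1rl, a C1r-like protease gene, had an ovary log2 difference of -0.49, without overlap of the groups, that missed the threshold (adjusted p = 0.161).

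Masp1 encodes a protease that starts the lectin pathway. It was the sole uncalled listed gene with a fold of at least 1.5. Its fat levels were 5.66, 5.76 and 4.94 under DHT and 6.15, 5.66 and 6.31 in controls. The groups overlapped, and the log2 difference of -0.59 had an SE of 0.24 and an adjusted p of 0.282. C2 and C4b, which form the classical C3 convertase, differed by 0.23 and 0.36 in the ovaries and by 0.21 and 0.16 in fat. The collectin genes Colec11 and Colec12 and the ficolin gene Fcna had ovary differences from -0.15 to -0.03 and fat differences from -0.12 to 0.33.

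**Figure D3:**
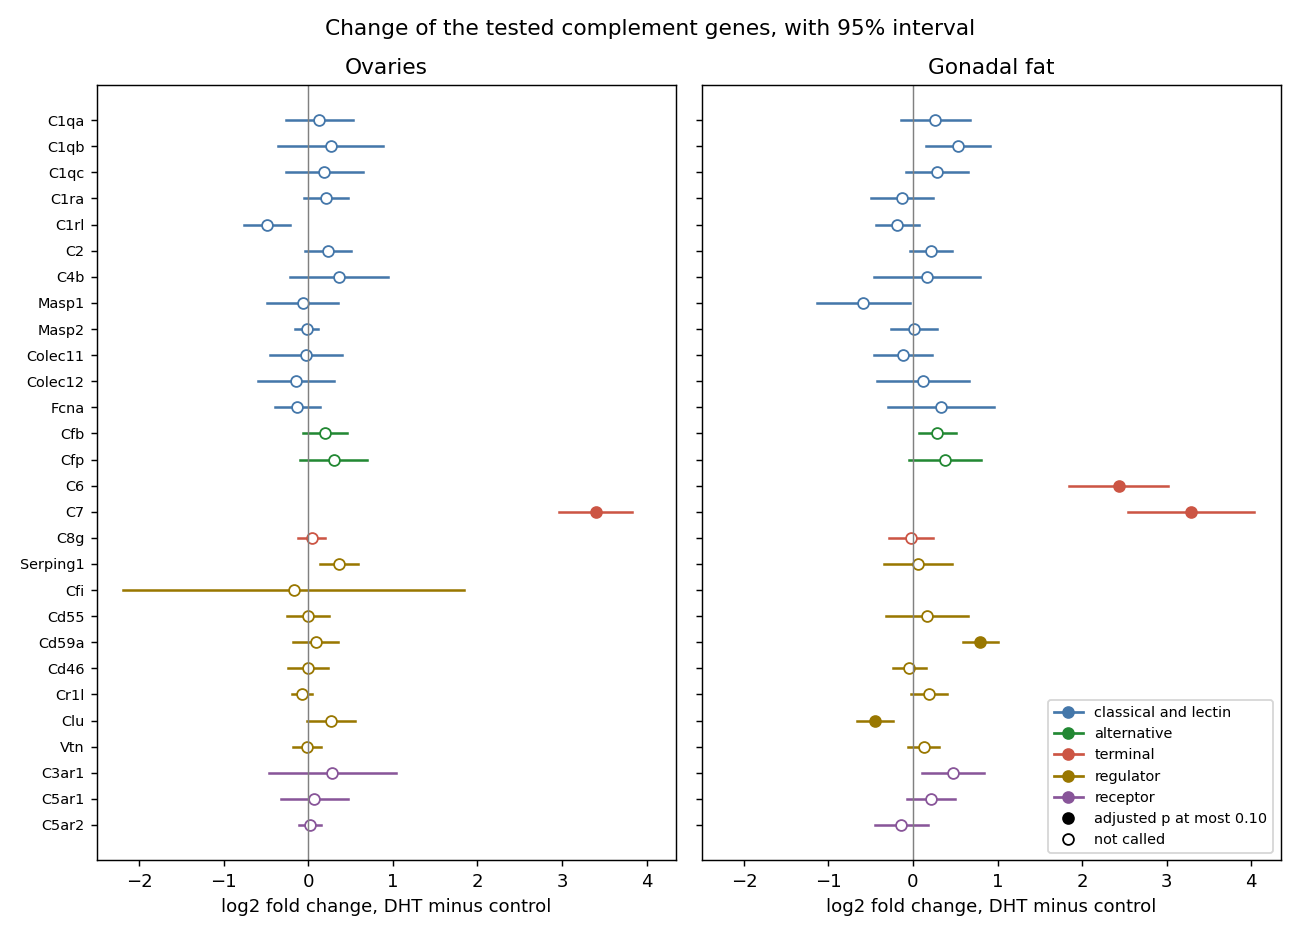
Log2 difference, DHT minus control, with its 95% interval for every complement gene tested in the ovaries (left) and gonadal fat (right), coloured by role, with filled points at an adjusted p of at most 0.10. C7 at 3.40 and 3.29 and C6 at 2.43 stood apart from the other genes, which lay between -0.59 and 0.80, and Cfi in the ovaries had the widest interval (-2.19 to 1.85).

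In the alternative pathway, Cfb, the gene of the protease subunit of its convertase, had fat levels between 7.44 and 7.71 under DHT and between 7.23 and 7.31 in controls. The groups did not overlap, and the log2 difference of 0.29 did not pass the test (adjusted p = 0.194). In the ovaries Cfb differed by 0.20. Cfp, the gene of properdin, which stabilises that convertase, differed by 0.30 in the ovaries and 0.38 in fat (adjusted p = 0.520 and 0.352).

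Of the receptor genes, C3ar1 had fat means of 6.02 ± 0.13 under DHT and 5.55 ± 0.32 in controls (SD, n = 3 each), a log2 difference of 0.47 without overlap of the groups (adjusted p = 0.198). C3ar1 differed by 0.28 in the ovaries (adjusted p = 0.803). C5ar1 and C5ar2, which bind the fragment of C5 that attracts leukocytes, differed by 0.07 and 0.02 in the ovaries and by 0.21 and -0.14 in fat. Cr2, a receptor of B cells and follicular dendritic cells, lay below the array median in both tissues.

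Groups that did not overlap were seen for 5 of the 27 tested genes in the ovaries (C1rl, C7, Serping1, Cr1l and Clu), where 20% of all tested genes did not overlap, and for 8 of 27 in fat (C2, Cfb, C6, C7, Cd59a, Clu, Vtn and C3ar1), where 22.8% did not. As shares these were 18.5% and 29.6%, the first below and the second above that of all genes.

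C1q, properdin and C3ar1 are made by macrophages, and 10 macrophage markers were read beside them. Their mean level was 6.59 to 6.80 on the DHT fat arrays and 6.15 to 6.66 on the control fat arrays, and 10 of 10 had a higher mean under DHT, of which Mertk, an engulfment receptor gene, rose (log2 difference 0.50, adjusted p = 0.0726). In the ovaries the mean was 6.69 to 7.22 under DHT and 6.66 to 6.89 in controls. There 7 of 10 were higher, with Mertk again called (0.86, limma adjusted p = 0.0587). Of all tested genes, 48.6% had a higher mean under DHT in fat and 48.4% in the ovaries, and 3.87% and 1.26% were called. No macrophage marker lay below the median on all arrays of a tissue. With the marker mean as a covariate in fat, the log2 difference of C1qb went from 0.53 to 0.16 and that of C3ar1 from 0.47 to 0.12 (adjusted p = 0.9998 for both). These genes are macrophage products themselves, and the marker mean was higher under DHT (difference 0.32). This fit therefore cannot separate macrophage content from DHT. In the same fit the log2 difference was 2.75 for C7 (adjusted p = 0.0678) and 2.05 for C6 (adjusted p = 0.0879), both still called. That of Cd59a went from 0.80 to 0.72 (adjusted p = 0.110) and that of Clu from -0.45 to -0.52 (adjusted p = 0.260), and neither was called. Over all genes the calls went from 745 to 89. The share of all genes with an unadjusted p below 0.05 in limma went from 16.2% to 7.74%.

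**Figure D4:**
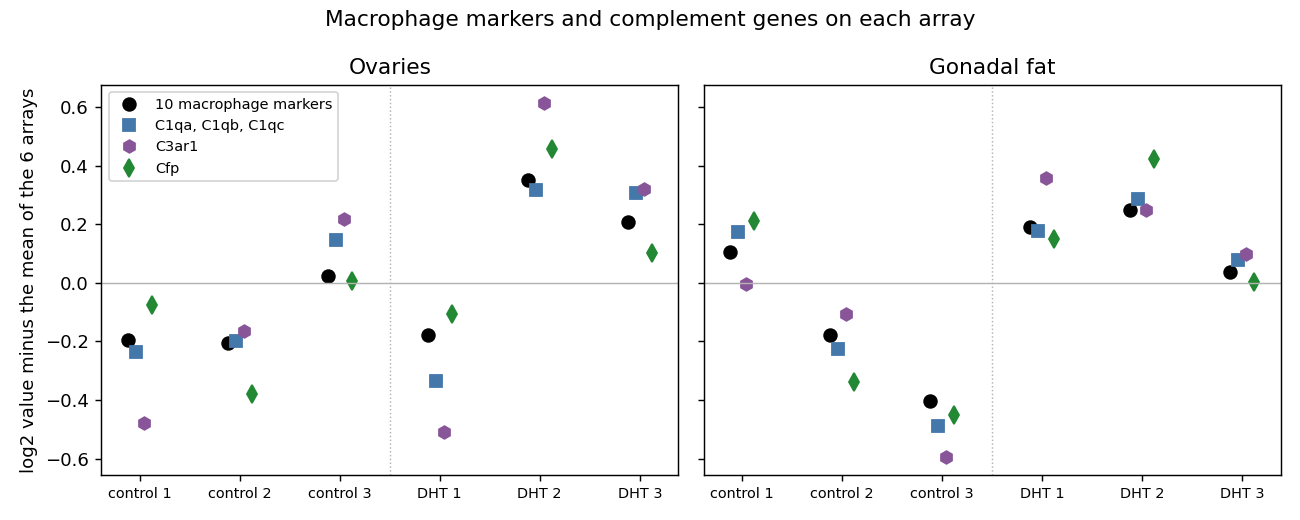
Level on each array, as the log2 value minus the mean of the 6 arrays of that tissue, of the mean of 10 macrophage markers, the mean of the C1q chain genes, C3ar1 and Cfp. In fat, control replicate 3 was lowest for each of them, and in the ovaries DHT replicate 2 was highest for each.

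Other marker lists were read for both tissues, beside the same shares of all tested genes (48.6% higher under DHT in fat and 48.4% in the ovaries, 3.87% and 1.26% called). Of the 4 measured corpus luteum markers, 2 were tested in fat and both fell in limma. These were Star (log2 difference -0.53, adjusted p = 0.0725) and Ptgfr (-0.49, adjusted p = 0.0794). Adipocyte markers averaged 10.4 to 10.9 on the fat arrays and granulosa markers 8.46 to 8.84 on the ovary arrays, in both cases above the array medians of the labelled tissue. Mesothelial markers, of the lining of the fat pad, had lower means under DHT in fat for 6 of 6 (5.45 to 6.19 against 6.14 to 6.54), and Bnc1 fell among them. Fibroblast markers averaged 8.15 to 8.23 on the DHT fat arrays and 8.37 to 9.43 on the control fat arrays. Lum fell among them (log2 difference -2.03), and of the 5 measured 3 had a lower and 2 a higher mean under DHT. In the ovaries the 5 measured fibroblast markers averaged 8.06 to 8.45 under DHT and 8.30 to 9.23 in controls, and 4 of them had a lower mean under DHT, with no call. The part of these lists in the fat results, and of the fibroblast markers in the ovary C7 result, was not tested. Lists of neutrophil, theca, granulosa and mammary markers held no call in either tissue, and of the 5 lymphocyte markers tested in the ovaries 1 rose (Cd4, adjusted p = 0.0962). Few neutrophil markers (1 of 6 in the ovaries, 2 of 6 in fat) and mammary markers (1 and 2 of 5) were tested, so the lack of a call there says little. In fat 2 of 4 theca markers were tested. In the ovaries the theca markers averaged 8.91 to 9.27 under DHT and 7.96 to 9.24 in controls, and 3 of 4 were higher under DHT.

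Among 27 further complement genes, such as copies of the listed genes, mannose-binding lectins and the integrin chains of complement receptors, 15 were tested in the ovaries and 16 in fat, and none was called in either tissue. At an unadjusted p below 0.05 limma found 1 of the 15 in the ovaries, where 13.3% of all tested genes had such a p, and 3 of the 16 in fat, where 16.2% did. Their median log2 difference was 0.08 in the ovaries and 0.02 in fat. Csmd1, which encodes a large membrane inhibitor of complement and is named after its values were seen, lay at 7.72, 7.44 and 7.16 under DHT and at 6.68, 5.69 and 6.74 in control ovaries. The groups did not overlap, yet the log2 difference of 1.07 missed the threshold (adjusted p = 0.205). In fat Csmd1 differed by -0.10.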

How the data were processed

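Total RNA of whole ovaries and gonadal fat pads was measured on Affymetrix mouse transcriptome arrays (3 per group, 12 in all). The authors deposited log2 expression values per transcript cluster, and the submitters' processing notes name MAS5, while the normalization and genome build are not given in the sources used here. Arrays give no read depth, so their number limits the precision. Of 65929 clusters, 30638 had 1 gene symbol, 2176 several and 33115 none in the platform annotation, and the cluster with the highest mean over the 12 arrays stood for a gene. For 26501 clusters the gonadal fat values stood in another row order than the names. They were re-paired by sorting the names, which raised the correlation of the tissue means over these clusters from 0.01 to 0.95 (the other 39428 clusters, 0.94). 

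Genes above the array median on at least 3 of the 6 arrays of a tissue were tested with lmFit and eBayes (limma 3.58.1, R 4.3.3), per tissue and for the tissue difference over all 12 arrays, with Benjamini-Hochberg adjustment and a threshold of 0.10. The study's methods name SAM, in whose place limma was used. An exact permutation test of 3 against 3 samples cannot go below p = 0.10. The scripts were tested on simulated data, and promoters were searched with Python 3.11.15. Values of every array are given for listed genes called in a test, or with a fold of at least 1.5, and the others by ranges, differences or means. The members, marker lists and tests were chosen with earlier results of these data known.

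The labels do not say that ovary and fat replicates of a number share a mouse. Their deviations from the group means correlated in each of the 6 pairs (r of 0.11 to 0.19), so the replicate number was used as a pairing in an alternative to the tissue difference. DHT and control arrays of replicate 1 deviated together, with r of 0.33 in the ovaries and 0.27 in fat. For the other replicate numbers r was negative in both tissues (-0.47 to -0.19). The cause of this pattern was not tested. Alternatives covered the normalization, filter, choice of cluster, spread model, threshold, row order, marker covariates and left-out arrays.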

Additional observations from a re-analysis of the deposited data

Results flagged for a closer look

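In 3 genes the effect of DHT differed between the tissues by a test of the difference itself (limma, all 12 arrays). Of the 26 listed genes tested for this, 2 were called (7.69%), and of 15 other complement genes 1 was (6.67%). Among all 18081 genes tested, 6.14% were called, a share close to these. For Cd59a the log2 effect in fat less the ovary effect was 0.711 (adjusted p = 0.0251), and it was -0.720 for Clu (adjusted p = 0.0277). For Csmd1, a gene outside the 36 listed, it was -1.17 (adjusted p = 0.0773), although its own difference passed the threshold in neither tissue.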

How the results depend on the processing

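In the ovaries the number of called complement genes stayed at 1 (C7) when any single array was left out and was 2 without the filter on low values (C7 and Hc), 2 with all 12 arrays in 1 fit (C7 and C1rl), and 0 without DHT replicate 3 and control replicate 2, where 3 complement genes had an unadjusted p below 0.05 in limma (8.36% of all genes did) and 5 genes of all were called. In gonadal fat the number was 3 to 4 without any single array, 3 after median centring, where 3 rose and 0 fell, 2 (C6 and C7) when a fold of at least 2 was also required, 2 (C6 and C7) with the macrophage markers as a covariate, 1 (Cd59a) in the deposited row order, in which the log2 difference of C7 was -0.0555, and 1 (Cd59a) over the undisplaced clusters alone, which leave out C6, C7 and Clu by construction. For the tissue difference it was 2 to 3 without any single array, 4 without the filter (C6, Cd59a, Clu and Hc), 0 with the fold criterion, where 3 had an unadjusted p below 0.05 (19.6% of all genes did), and 1 (Cd59a) over undisplaced clusters. With the replicate number as a replicate block, 1 gene was called in the ovaries and 6 in fat, where C1qb and C3ar1 were added. Within a tissue this block sets DHT and control arrays of a number together. No label pairs these arrays, so the added calls rest on an arbitrary pairing. Over all genes this block moved the calls from 241 to 3 in the ovaries and from 745 to 1122 in fat. For the tissue difference, with treatment and replicate number as the block, 2 listed genes were called. Without control replicate 1, C1qb in fat was also called (0.73, adjusted p = 0.0379), while with the macrophage markers as a covariate it differed by 0.16 and C3ar1 by 0.12 (adjusted p = 0.9998 for both). With the macrophage markers as a covariate in fat, the calls over all genes went from 745 to 89. That fit cannot separate macrophage content from DHT. The cause of these changes was not tested where none is named.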
